A study of Mus musculus with 2 samples.

Results

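The transcripts described here are those of 10 genes that mark endothelial cells, the cells that line blood vessels: Pecam1, Cdh5, Kdr, Flt1, Tek, Tie1, Sox18, Emcn, Vwf and Aqp1. They were found on the array as the probes outside the control classes whose listed gene name, or the current symbol of whose transcript accession, is one of these names. This gave 20 probes for 10 of the 21327 named genes on the array. The matching rule uses names only, while the list of genes itself was drawn up with earlier results of these data known. Gastrocnemius, a calf muscle, was taken from wild-type male C57BL/6 mice. In the denervated group the mice were 7 weeks old when the muscle lost its nerve supply and were sampled 14 days later, at 9 weeks of age. The control mice were also 9 weeks old; their labels name both a sham and a plain control, so it is unclear whether these mice had surgery. Each group is 1 pool of RNA from 6 mice on 1 array, so there is no replicate array, no test and no estimate of the spread between mice. Every difference below describes these 2 pools.

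Endothelial cells receive growth signals through a pair of receptor systems. Vascular endothelial growth factors (VEGFs) bind the receptor kinases encoded by Kdr and Flt1, and angiopoietins bind the kinase encoded by Tek, with Tie1 as its partner. In skeletal muscle each fibre is surrounded by capillaries, so whole-muscle RNA always holds an endothelial share.

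All 10 genes were measured on both arrays, meaning that at least 1 probe was well above background on each and saturated on neither. After each array was scaled to its own 75th percentile of signal, all 10 genes were lower in the denervated pool, with log2 differences (denervated minus control) from -1.12 to -0.34 and a median of -0.51. Over the 15254 genes measured on both arrays, 57.2% were below 0 and the median was -0.11. Of the 10 members, Kdr was at least 2-fold lower, which is the threshold used here, and 8.58% of all measured genes were at least 2-fold lower. None of the 10 was at least 2-fold higher, compared with 6.94% of all measured genes. The direction depends on the scaling for the smaller differences. With centring on the 9 spike-in control probes, which adds 0.40 to every log2 difference, 9 of the 10 genes were below 0 (32.3% of all measured genes), the median was -0.11 and none was 2-fold lower (4.18% of all). Without scaling 7 of the 10 were below 0 (30.4% of all measured genes) and none was 2-fold lower (3.93% of all). In whole-muscle RNA, fewer endothelial cells and less of a transcript in each cell cannot be told apart.

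The value after ± combines the spot errors that the scanner software assigned on the arrays. It was 0.20 for each member's brightest probe, is technical only, and holds no variation between animals. Signals are processed intensities, and levels of different probes are not comparable with each other, since each probe binds with its own efficiency.

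**Figure D1:**
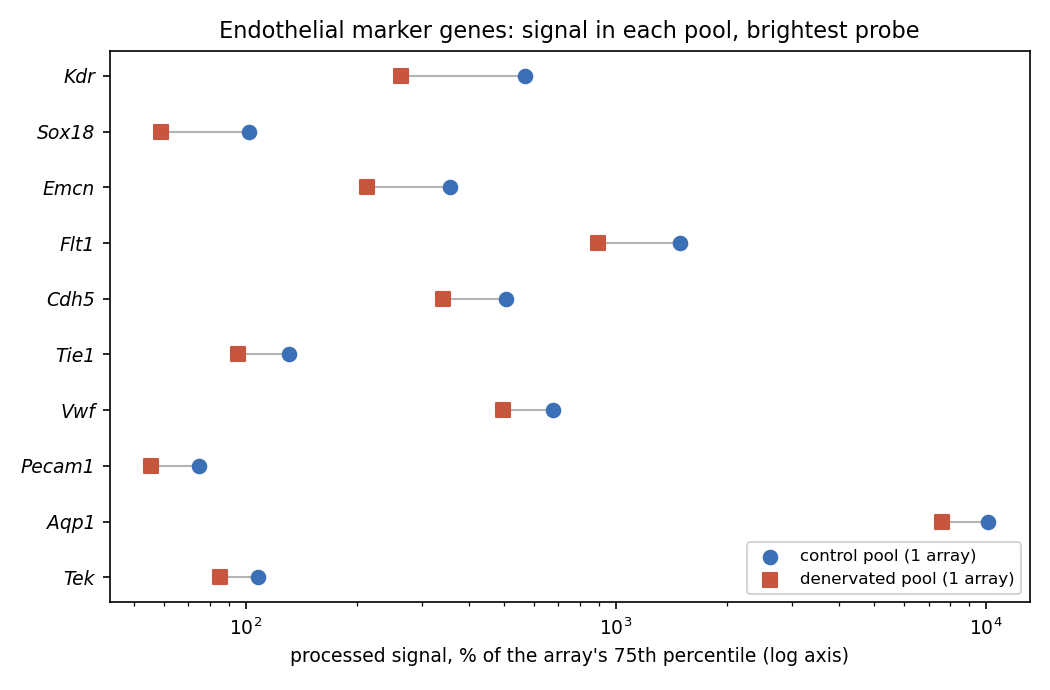
Processed signal of the brightest probe of each endothelial marker gene in the control pool (blue circles) and the denervated pool (red squares), as a percentage of the array's 75th percentile on a log axis, 1 array per pool. All 10 squares lie to the left of their circles, and the widest gap is that of Kdr.

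Kdr encodes VEGF receptor 2, the main signalling receptor for VEGF-A in endothelium. Its signal was 4485 in control muscle and 2787 in denervated muscle, the mean of 10 spots on each array (probe for transcript NM_010612, chr5:76214981-76215040, mm8 assembly, minus strand). After scaling these signals were 569% and 262% of the array's 75th percentile. The difference was -1.12 ± 0.20, a level 53.9% lower in the denervated pool, and 6.71% of all measured genes had a lower difference. Kdr was also lower with spike-in scaling (-0.72) and without scaling (-0.69).

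Because this probe was printed 10 times, Kdr offers a direct view of spot error. On the control array the 10 unscaled signals ran from 4262 to 4958 with a median of 4432. On the denervated array they ran from 2633 to 2962 with a median of 2786. The spots of the arrays did not overlap before or after scaling. Spot by spot the difference lay between -1.19 and -1.01, with an SD of 0.05 over the 10 spots, which share 1 hybridisation per pool. A second Kdr probe, designed to the cDNA clone AK054510 and lying 28.33 kb upstream at chr5:76243311-76243370, was not well above background on either array in spite of its 10 spots, and gave no level.

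Flt1 encodes VEGF receptor 1, which binds VEGF-A tightly and also exists as a secreted decoy. Its brightest probe had signals of 11719 (control) and 9540 (denervated), or 1488% and 898% of the 75th percentile (NM_010228, chr5:147872564-147872623, mm8, minus strand). The difference was -0.73 ± 0.20. Flt1 had 5 probes, the most of any member, and 4 of them were measured. The other measured probes gave -0.77 ± 0.20 (clone BC029674, 75.99 kb upstream), -0.61 ± 0.20 (NM_010228, 73 bases upstream) and -0.74 ± 0.31 (clone AK005502, 92.185 kb upstream). The AK005502 probe was dim, with signals of 41.5 in control muscle and 33.5 in denervated muscle. Probes at both ends of this stretch of chromosome 5 therefore read the same direction, within their technical errors of each other. The reading at the far end rests on that dim probe. The fifth probe, for clone AK084177, was above background in the control pool with a signal of 19.0 and not well above background in the denervated pool. With spike-in scaling the difference of Flt1 was -0.33.

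Tek encodes the angiopoietin receptor Tie2. Its signal was 851 in control muscle and 906 in denervated muscle before scaling, and the scaled difference of -0.34 ± 0.20 was the smallest of the 10 (NM_013690, chr4:94366188-94366246, mm8, plus strand). Without scaling the difference was 0.09 and with spike-in scaling 0.06, so the direction of Tek is not settled. A second Tek probe, for clone AK053336 and 132.374 kb upstream, gave -0.59 ± 0.21.

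Tie1, the partner receptor of Tie2 that binds no angiopoietin on its own, had signals of 1031 and 1012 in the control and denervated pools. The scaled difference was -0.46 ± 0.20 by its single probe (NM_011587, chr4:117969459-117969518, mm8, minus strand), and -0.06 with spike-in scaling. The gap between Kdr and Tie1 was 0.66 and that between Flt1 and Tek 0.39, each with a technical error of 0.29. The gap between Flt1 and Tie1, 0.27, was within that error, and the second Tek probe (-0.59) lay beside the Flt1 probe at -0.61. Of Kdr and Flt1, Kdr alone was therefore apart from both angiopoietin receptors by more than the technical error. Such gaps do not depend on a scaling that adds a constant to all genes.

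The start regions of these 4 receptor genes are shown because the genes hold the largest (Kdr) and the smallest (Tek) scaled difference of the members. The choice thus rests on these same values, and a link between start regions and differences was not tested. RefSeq windows (assembly GRCm38.p6, 250 bases before to 50 after the gene's start) were matched for 6 of the 10 members: Kdr, Flt1, Tek, Tie1, Emcn and Aqp1. The 250 bases before the start are printed 5′ to 3′ on the gene's strand, for Kdr at chr5:75978456-75978705 (minus strand), Flt1 at chr5:147726012-147726261 (minus strand), Tek at chr4:94739039-94739288 (plus strand) and Tie1 at chr4:118489850-118490099 (minus strand). Capitals mark matches, on either strand, to CAGGAA, a core of the endothelial ETS factors. They also mark matches to CCGGAA, which is another ETS core, and to the letters GATAAG of a GATA site. The remaining strings searched were AACAAT for a SOX site and TATAAA for a TATA box.
Kdr: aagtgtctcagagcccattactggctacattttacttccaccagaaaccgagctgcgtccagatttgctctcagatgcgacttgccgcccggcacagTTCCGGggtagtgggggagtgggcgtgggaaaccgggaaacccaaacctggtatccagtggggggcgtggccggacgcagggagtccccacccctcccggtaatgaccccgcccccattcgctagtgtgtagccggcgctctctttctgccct
Flt1: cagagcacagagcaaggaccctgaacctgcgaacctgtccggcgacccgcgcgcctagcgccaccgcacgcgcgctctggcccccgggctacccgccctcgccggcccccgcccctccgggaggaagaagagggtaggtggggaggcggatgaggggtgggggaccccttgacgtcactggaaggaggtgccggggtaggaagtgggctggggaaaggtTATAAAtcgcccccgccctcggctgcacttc
Tek: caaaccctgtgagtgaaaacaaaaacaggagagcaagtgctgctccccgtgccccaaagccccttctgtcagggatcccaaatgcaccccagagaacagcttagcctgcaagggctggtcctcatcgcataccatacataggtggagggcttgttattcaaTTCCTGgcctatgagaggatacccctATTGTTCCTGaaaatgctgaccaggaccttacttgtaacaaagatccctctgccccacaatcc
Tie1: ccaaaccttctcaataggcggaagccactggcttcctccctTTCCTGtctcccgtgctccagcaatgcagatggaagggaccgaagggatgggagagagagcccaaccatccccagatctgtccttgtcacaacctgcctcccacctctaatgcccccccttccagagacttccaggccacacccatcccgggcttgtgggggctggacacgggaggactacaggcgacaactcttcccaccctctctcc

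Over the whole windows of the 6 matched genes, the core CAGGAA was found in 3 (Emcn, Tek and Tie1) and in 30.6% of all 32851 windows. The core CCGGAA was found in Kdr alone among the 6, at 153 bases before the start, and in 14.9% of all windows. At least 1 of the 2 cores was found in 4 of the 6, and in 41.4% of all windows. Tek held the GATA letters (7.44% of all windows) at 38 bases after the start, outside the printed part. The SOX letters were found in Emcn and Tek (10.7% of all windows). In Tek this match, 63 bases before the start, overlaps an ETS core at 59 bases, so the capitals there run together. Flt1 had the TATA letters at 31 bases before its start (13.6% of all windows). Aqp1 held none of these letter strings. Matches describe the letters only and are not evidence of binding.

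**Figure D2:**
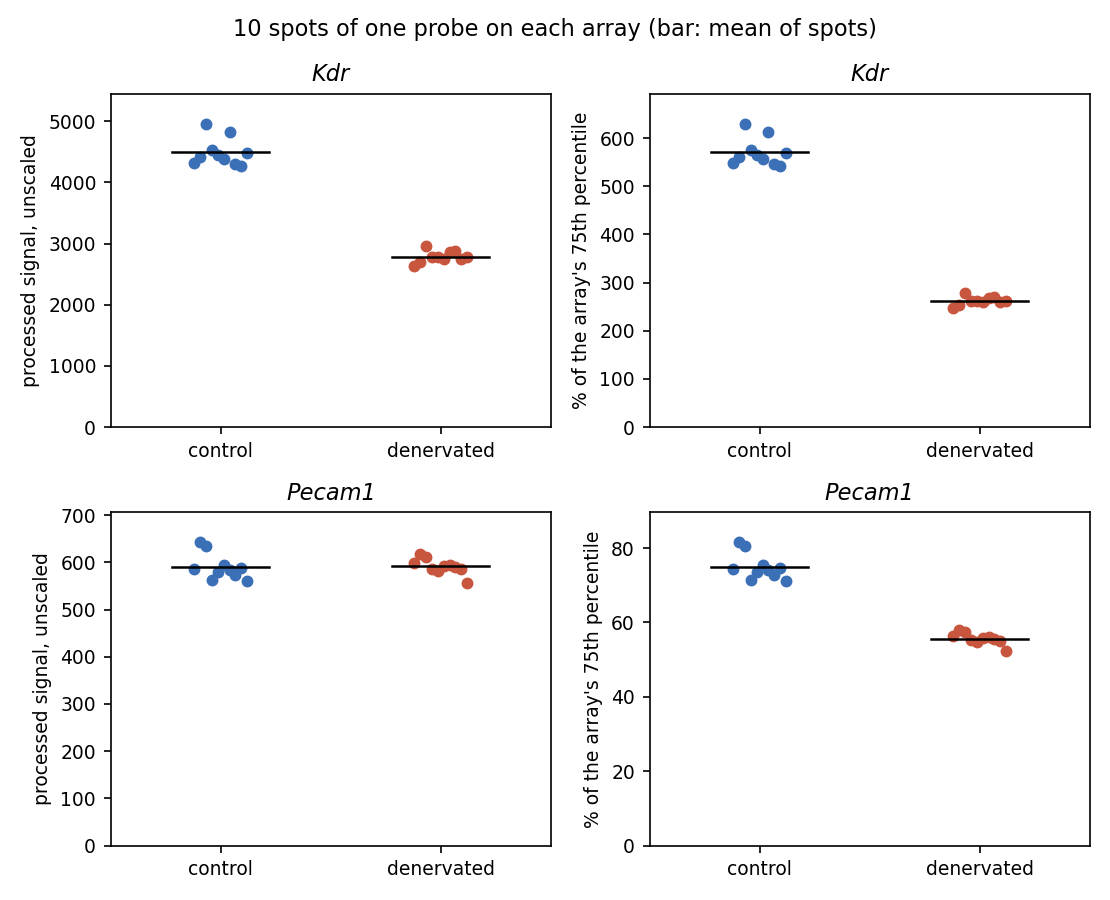
Signals of the 10 spots of the Kdr probe (top) and of the Pecam1 probe (bottom) on the control array (blue) and the denervated array (red), unscaled on the left and as a percentage of the array's 75th percentile on the right; bars are means of the spots. The Kdr spots are apart in both panels, whereas the Pecam1 spots overlap until the arrays are scaled.

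Cdh5 encodes VE-cadherin, the adhesion molecule of endothelial junctions. Its signal was 3975 in control muscle and 3633 in denervated muscle (NM_009868, chr8:107033388-107033447, mm8, plus strand), a scaled difference of -0.56 ± 0.20. A second probe for the same transcript, 660 bases upstream, gave -0.53 ± 0.20. The pair of probes differed by far less than either technical error.

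Pecam1 encodes CD31, an adhesion molecule of endothelial junctions that platelets and leukocytes also carry. It shows most plainly how the result rests on the scaling. The 10 spots of its brighter probe ran from 559 to 642 on the control array (median 584) and from 556 to 617 on the denervated array (median 591), so the unscaled signals overlapped. As a share of the 75th percentile, which was 788 for control and 1063 for denervated muscle, they ran from 71.0% to 81.5% and from 52.3% to 58.1%, with no overlap. The scaled difference was -0.43 ± 0.20, with an SD of 0.04 over the 10 spots, and with spike-in scaling it was -0.03.

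This Pecam1 probe is mapped by the files to 1854 bases of chromosome 11 (NM_001032378, chr11:106497165-106499018, mm8, minus strand), far more than the 59 or 60 bases of the other member probes, so its letters are split over the genome. The second Pecam1 probe, for clone AK031380, lies inside that stretch at chr11:106497834-106497893. It was dim, with signals of 37.7 in control muscle and 23.9 in denervated muscle, and gave -1.09 ± 0.34. The mean of both probes was -0.76. The second probe lies, at least in part, on bases that the split probe skips, so the 2 probes need not read the same transcript form. Which form the second probe reads was not determined, because probe sequences were not used. Neither its value nor the mean of both is therefore a second reading of the transcript of the brighter probe. The Pecam1 value of -0.43 thus rests on 1 probe, without the like second reading that Cdh5 and Vwf have.

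Sox18, a SOX-family transcription factor of vascular and lymphatic development, had signals of 804 in control muscle and 628 in denervated muscle. Its difference was -0.79 ± 0.20 (NM_009236, chr2:181599490-181599549, mm8, minus strand), second to Kdr, and stayed below 0 with spike-in scaling at -0.39. Its relatives Sox17 and Sox7, which act with it in endothelium, were at -0.40 ± 0.20 and -0.62 ± 0.21. All 3 were lower, although Sox17 was not below 0 with spike-in scaling or without scaling.

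Emcn encodes endomucin, a sialomucin of capillary and venous endothelium. Its signal was 2816 in control muscle and 2255 in denervated muscle (NM_016885, chr3:137368234-137368293, mm8, plus strand). The difference was -0.75 ± 0.20, or -0.35 with spike-in scaling. The control pool was the higher one before and after scaling.

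Vwf encodes von Willebrand factor, which endothelial cells and megakaryocytes store and release for platelet adhesion. Its signal was nearly equal on the arrays before scaling, 5323 in control muscle and 5275 in denervated muscle (NM_011708, chr6:125652152-125652211, mm8, plus strand). The scaled difference was -0.44 ± 0.20, and a second probe for the same transcript gave -0.40 ± 0.20. With spike-in scaling Vwf stood at -0.05. One more Vwf probe, for clone AK044921, was not well above background on either array.

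Aqp1 encodes the water channel of endothelial cells and of red blood cells. Its signals were 79768 in control muscle and 80687 in denervated muscle (NM_007472, chr6:55278064-55278123, mm8, plus strand). The difference was -0.42 ± 0.20 after scaling and 0.02 without it. It was smaller with scalings that vary with signal, at -0.27 (quantile) and -0.23 (loess). Of the 12 aquaporins listed for comparison 6 were measured, with differences from -6.53 for the fibre channel Aqp4 to 0.02 for Aqp2.

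**Figure D3:**
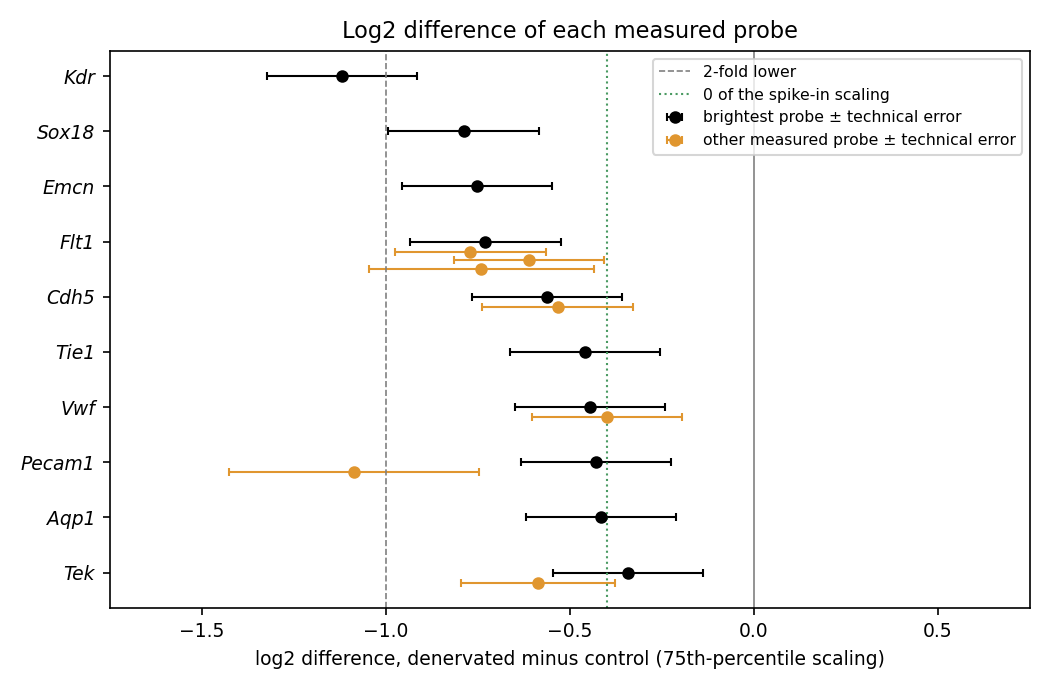
Log2 difference (denervated minus control, 75th-percentile scaling) of each measured probe of the endothelial marker genes; black points are the brightest probes, orange points the other measured probes, and bars the technical error. The 17 measured probes all lie left of 0, while the dotted line, which is where 0 falls with spike-in scaling, passes through the error bars of Cdh5, Tie1, Vwf, Pecam1, Aqp1 and Tek.

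Set in order, the differences of the 10 genes ran from Kdr (-1.12) through Sox18 (-0.79), Emcn (-0.75), Flt1 (-0.73) and Cdh5 (-0.56) to Tie1 (-0.46), Vwf (-0.44), Pecam1 (-0.43), Aqp1 (-0.42) and Tek (-0.34). Of the 9 pairs of neighbours in this order, 1 was further apart than the technical error of the gap, namely Kdr and Sox18 (0.33, error 0.29). Over all 45 pairs, 22 were further apart than that error and 5 by more than 2 such errors, and all 5 pairs include Kdr: with Tie1, Vwf, Pecam1, Aqp1 and Tek. The SD of the 10 differences was 0.24, while that of all measured genes was 0.85. The latter set is not matched for signal: control signals went down to 14.9 over all measured genes and to 590 among the members. With spike-in scaling 4 of the 10 (Kdr, Sox18, Emcn and Flt1) lay further from 0 than their technical error, and the same number did so without scaling. No share of all measured genes beyond their technical error stands beside this count, so it describes these genes only and does not set them apart.

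Of the 20 member probes 17 were measured, and all 17 were below 0 after 75th-percentile scaling. A total of 8257 genes had mean signals within the range of the members' signals. Their median difference was -0.02, and 51.3% of them were below 0.

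Other endothelial genes from a comparison list stood in the same range. Of 34 listed, 33 were measured, and 31 of these were below 0 with a median of -0.62; none was 2-fold lower or higher. With spike-in scaling 27 were below 0 and the median was -0.23. The largest differences belonged to the endothelial nitric oxide synthase gene Nos3 (-0.91 ± 0.21), the phosphatase gene Ptprb (-0.85 ± 0.20), whose product acts on Tie2, and the flow-responsive factor Klf4 (-0.83 ± 0.20). The brightest were Cd34 at -0.35 ± 0.20 and Klf2 at -0.48 ± 0.20, the latter with another probe at -1.06. The 2 genes above 0, named after their values were seen, were Lmo2 (0.52 ± 0.22) and Nostrin (0.19 ± 0.30). Both were dim, with signals in the control and denervated pools of 69.4 and 134 for Lmo2 and 32.6 and 50.3 for Nostrin. Lmo2 is also a gene of blood-forming cells.

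Of the 8 ligand genes measured in both pools 7 were lower, and Vegfd was higher. Vegfa, the main ligand of Kdr, had signals of 9593 and 5027 in the control and denervated pools and differed by -1.36 ± 0.20, with its other probes up to -0.89. Vegfb, a ligand of Flt1, differed by -1.10 ± 0.20, Vegfc by -0.81 ± 0.20 and Pgf, another Flt1 ligand, by -0.75 ± 0.22. Vegfd had signals of 1263 and 3601 and a difference of 1.08 ± 0.20. Vegfa and Vegfb also stayed below 0 with spike-in scaling, at -0.97 and -0.70.

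Among angiopoietins, the Tie2 agonist Angpt1 was at -0.99 ± 0.24 and Angpt2, which can antagonise it, at -0.70 ± 0.21. Angpt4 was above background in the denervated pool only, with a bound of 2.05-fold higher there. Its denervated signal was itself dim, at a scaled log2 level of -4.72, and the bound holds no technical error. For this bound the control level was taken as its own dim signal or the faintest detected signal of that array, whichever was higher. The endothelial peptide Apln was at -0.88 ± 0.21, with another probe at -1.68. Of the 8 ligands measured in both pools, which leaves out Angpt4, 7 were below 0 under 75th-percentile scaling, spike-in scaling and no scaling. The shares of all measured genes below 0 were 57.2%, 32.3% and 30.4% in turn. The medians of the 8 were -0.85, -0.45 and -0.41.

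The co-receptors and other receptors of these pathways differed less. Nrp1 and Nrp2, the neuropilins that bind VEGF with Kdr or Flt4, were at -0.29 ± 0.20 (-0.69 to 0.06 over its probes) and -0.50 ± 0.20. Flt4, VEGF receptor 3, was dim and at -0.38 ± 0.30. The apelin receptor gene Aplnr was at -0.07 ± 0.21, with another probe at -0.99. All 5 measured genes of this list, Ptprb included, were below 0, but only Ptprb and Nrp2 were so with spike-in scaling.

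Genes of Notch signalling and of arterial or venous identity had 13 of 14 measured members below 0, with a median of -0.62, or 11 and -0.22 with spike-in scaling. Unc5b, a guidance receptor of arterial and sprouting endothelium, was at -1.30 ± 0.21 and was the 1 gene of the list at least 2-fold lower. The Notch ligand of sprouting tip cells, Dll4, was at -0.90 ± 0.22 and the venous factor Nr2f2 at -0.90 ± 0.20, with Jag1 at -0.08 ± 0.20. The gene above 0, named after its value was seen, was Cxcr4 at 0.01 ± 0.22.

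Lists of activated and lymphatic endothelium did not lie to one side. Of 8 measured genes of activated endothelium and its storage granules, 4 were below 0 and 4 above (median 0.01, or 0.41 with spike-in scaling). Cd63, a membrane protein of granules in many cell types, was at 1.18 ± 0.20 and Stab1, which macrophages also carry, at 0.84 ± 0.20. Of 7 lymphatic genes 4 were above 0 (median 0.06, or 0.45 with spike-in scaling), from Mmrn1 at -1.27 ± 0.21 to Pdpn at 1.83 ± 0.29.

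**Figure D4:**
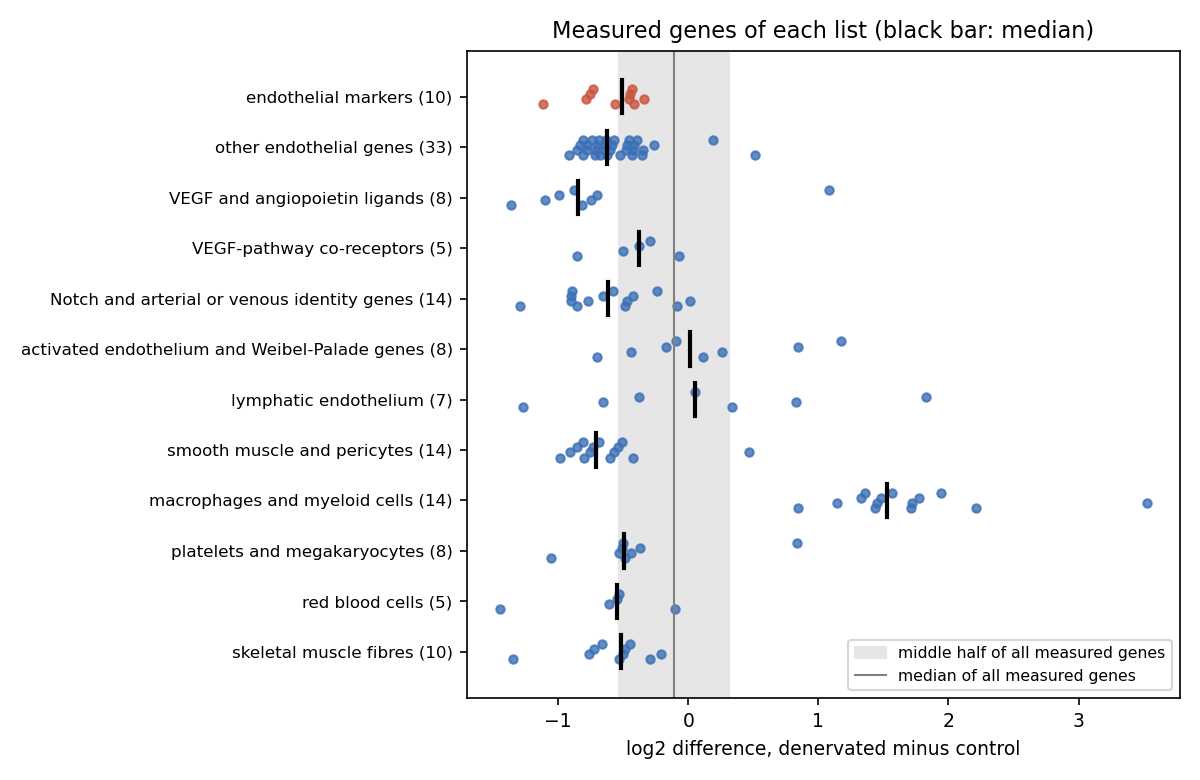
Log2 difference (denervated minus control, 75th-percentile scaling) of each measured gene of the endothelial markers (red) and of the comparison lists (blue), with the number measured in parentheses, black bars for list medians, a grey line for the median of all measured genes and a grey band from their lower to their upper quartile. The medians are -0.51 for the marker genes, -0.62 for the other endothelial genes and -0.71 for smooth muscle and pericytes, near 0 for activated (0.01) and lymphatic (0.06) endothelium, and 1.53 for macrophages; spike-in scaling moves every point right by 0.40.

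Markers of other cells in the muscle were read in the same way. The fibre check showed the tissue as labelled: all 10 skeletal fibre genes were measured, with control-pool signals from 108914 to 673178. Their median difference was -0.52, close to that of the endothelial markers, and 8 of the 10 were below 0 with spike-in scaling. In the control pool these signals lay above that of every member. The likeness of the medians was not examined with scalings that vary with signal, which moved the bright Aqp1. Smooth muscle and pericyte genes, which wrap the same vessels, had 13 of 14 members below 0 with a median of -0.71. Macrophage and myeloid markers were higher in 14 of 14 genes and at least 2-fold higher in 13, with a median of 1.53 and with their summed scaled signal at 21.7 times the 75th percentile for control and 62.1 times for denervated muscle. Such a sum follows its brightest probes, here Lyz2 with signals of 12517 and 47253. Leukocytes also carry Pecam1, and some macrophages carry Tek. Their part in the members' values was not tested.

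Platelets also hold Vwf and Pecam1, and red blood cells Aqp1. Of 10 platelet and megakaryocyte markers 8 were measured and 7 of these were below 0 (median -0.49). Itga2b and Gp6, which define platelets, were not well above background on either array. The summed scaled signal of the list was 4.33 times the 75th percentile for control and 6.70 times for denervated muscle, and most of it came from Pf4, which macrophages also make and which was at 0.83 ± 0.20. Of 6 red blood cell markers with a probe, 5 were measured and all 5 were below 0 (median -0.55), Epb42 was not well above background, and the summed scaled signal was 125 and 84.4 times the 75th percentile. The part of these cells in the values of Vwf and Aqp1 was not tested.

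**Figure D5:**
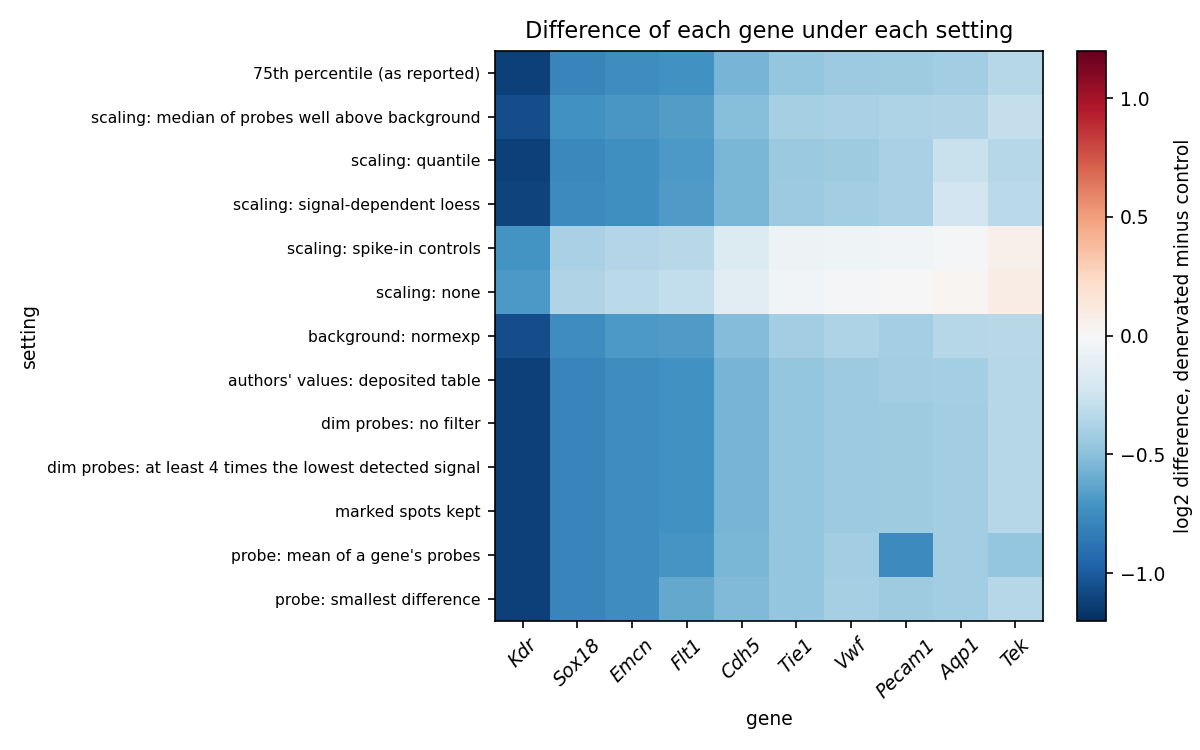
Colour map of the log2 difference (denervated minus control) of each endothelial marker gene, in columns, under the reported setting and each of 12 alternatives, in rows. Kdr is blue in every row, and the rows for spike-in scaling and no scaling are the palest, with Tek slightly red in both.

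The setting that matters for these genes is the scaling between arrays. Over all measured genes at least 2-fold apart, 44.7% were the higher ones with 75th-percentile scaling, 77.6% with spike-in scaling and 79.7% without scaling. The median difference of all measured genes was -0.11, 0.29 and 0.32 in turn. Relative to that median the endothelial markers stood 0.40 lower (a median difference of -0.40 from all genes), which no constant shift alters. The 9 spike-in probes differed between the arrays by a median of 0.03 before scaling, over a range that reached 0.68 for 1 of them.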

How the data were processed

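Gene expression was measured on 2 one-colour Agilent arrays, 1 for each pool of RNA, with 1.65 µg of Cy3-labelled cRNA per the labels. The deposited intensity values were made by the authors with Agilent Feature Extraction 9.5 (9.5.3.1 per the file headers), which corrected each array for spatial trends without scaling between arrays. The authors also deposited a table of whole-number values, used here as a score in 1 alternative. Comparison with each array's processed intensity showed the deposited score to be linear, with the 75th percentile of each column at 100 (column medians 10 and 9), so its scale, centring and direction are known.

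Spots marked as outliers by the software were left out, spots of a probe were averaged as log2 values, and the array's 75th percentile over probes was subtracted (788 and 1063). Well-above-background probes were 70.9% and 68.4% of all. A gene took its brightest measured probe. Of 41174 probes, 23374 took their gene from a RefSeq accession and 2919 through an older symbol that a RefSeq table (GRCm38.p6, names only) gives to 1 gene; others kept the file's name. Probe positions are those of the files, on mm8. With 1 array per group no test was made. The code was tested on simulated data. The precision is limited by the number of arrays: the preset spot error gave a median of 0.20 over genes, and 179 probes with at least 8 usable spots gave a median SD of 0.07. Alternatives covered scaling, background (limma 3.58.1 in R 4.3.3), dim probes, marked spots, probe choice and the deposited table.

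The members and comparison lists were chosen with earlier results of these data known. Named genes are all members with all probes, every measured VEGF or angiopoietin ligand and receptor, and, per other list, the 3 largest differences, the 2 brightest genes and bounds of at least 2-fold, of which those that bear on the members are given. Protein sequences and probe sequences were not used here.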

Additional observations from a re-analysis of the deposited data

How the results depend on the processing

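With 1 array per group no replicate could be left out. No paired analysis was possible because each group has 1 array and the labels give no replicate numbers. Of 120 values (10 genes under 12 alternatives), 99 moved by less than the gene's technical error and 21 moved further. Values turned above 0 for Tek with spike-in scaling (0.06) and for Tek (0.09), Aqp1 (0.02) and Pecam1 (0.00, rounded) without scaling; Kdr kept its sign. Those 21 were the 10 genes with spike-in scaling, the 10 without scaling, and Pecam1 as the mean of its probes (-0.76). The median over the 10 genes was -0.11 with spike-in scaling and -0.08 without scaling, and the number at least 2-fold lower was 0 in both, against 1 as reported. Under the other 10 alternatives the median lay between -0.63 and -0.46, all 10 genes were below 0 and Kdr alone was 2-fold lower. Differences nearer to 0 than about 0.43 have no settled direction here, and a larger difference is not thereby settled. Those of Vwf (-0.01 without scaling, -0.05 with spike-in scaling), Tie1 (-0.03, -0.06) and Cdh5 (-0.13, -0.16) kept their sign. They lay within the technical error of 0.20 under both settings, so their direction is not settled either. The precision of 1 array per pool is technical only.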
